A study of Mus musculus with 6 samples.

Results

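The genes described here are the D-type cyclins Ccnd1, Ccnd2 and Ccnd3 and their kinase partners Cdk4 and Cdk6, 5 of the 24062 genes in a table of RNA-seq counts from mouse embryonic fibroblasts, which are connective tissue cells grown from embryos. They were chosen by gene symbol, and all 5 were among the 14090 genes with enough counts to be tested. In the p27 OE group a lentivirus drove overexpression of p27, the cyclin-dependent kinase (CDK) inhibitor encoded by Cdkn1b, and the cells were labelled non-senescent. The reference was the EV control, an abbreviation that the labels leave unexplained. Each group had 3 libraries, numbered 1 to 3, from C57BL/6 cells at day 4. The labels name neither the promoter of the virus nor any difference in genotype, and they leave unsaid whether both groups were cultured or sequenced side by side and whether numbered libraries came from separate cultures. Without pairing, p-values measure only the spread between these libraries. Between those numbered 2 and 3 it may be technical, although they too differ in Xist. Those numbered 1 differ from both in Xist and Ddx3y, as given below.

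D-type cyclins are made when growth factors reach a cell, and they bind and activate CDK4 or CDK6. The active kinases phosphorylate the retinoblastoma protein and its relatives, which frees E2F transcription factors to switch on the genes of DNA replication. p27 inhibits the CDK2 complexes that act later, but it also binds the cyclin D complexes, helps them to assemble and is held there away from CDK2. In fibroblasts the cyclin D1 and D2 genes respond to serum and to the transcription factor Myc, and Cdk4 is a known Myc target.

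Total counts ran from 34920728 to 52098220 per library. Cdkn1b was at 419, 978 and 460.0 CPM (counts scaled to library size with TMM factors) in p27 OE 1, 2 and 3 and at 52.2, 49.9 and 51.2 CPM in EV control 1, 2 and 3, so each library carried its label's direction, at a spread in p27 OE that left Cdkn1b uncalled by edgeR (paired log2 fold change 3.48 ± 0.42, adjusted p 0.0873) and called by DESeq2 (3.88e-27 without pairing). All 10 fibroblast markers examined stood at 1 CPM or more in every library. Of the markers of other cells in the table, 4 of 5 macrophage, 2 of 5 endothelial, 2 of 5 epithelial and 1 of 5 muscle genes averaged 1 CPM or more. The macrophage list summed to 38.8 to 71.8 CPM in p27 OE and 42.6 to 53.8 CPM in EV control, and the endothelial, epithelial and muscle lists to at most 3.58, 12.1 and 3.10 CPM. Of 5 neural markers Sox2 and Pax6 were below 1 CPM, and the list's sum, with Nes, Tubb3 and Map2, was 171.8 to 231 CPM in p27 OE and 129.8 to 150.3 CPM in EV control. The part of these sums in the results was not tested. The libraries numbered 1 stood apart. Their mean chi-square per gene against others of their group was 100.4 to 134, against 15.02 between p27 OE 2 and 3 and 9.77 between EV control 2 and 3, where 1 is sampling noise. They held the X-inactivation transcript Xist at 477 CPM in p27 OE and 317 CPM in EV control. Xist was at 9.57 CPM in p27 OE 2 and 5.93 CPM in EV control 2. It was at 0.504 CPM in p27 OE 3 and 0.601 CPM in EV control 3. The Y-linked gene Ddx3y was at 0.0220 CPM in p27 OE 1 and 0.0556 CPM in EV control 1. In the other libraries it was at 54.3 to 65.5 CPM. The members' paired fold changes, shares, sums and levels per kilobase are therefore given with and without the libraries numbered 1.

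Ccnd1 and Ccnd2 rose in p27 OE when libraries of the same number were compared, by 1.32-fold and 1.36-fold in the paired fit, whereas Ccnd3, Cdk4 and Cdk6 did not pass the test. The test was edgeR's quasi-likelihood fit, either with the replicate number as a block (the paired fit) or without it (the unpaired fit), with Benjamini-Hochberg adjustment over the 14090 genes and a threshold of 0.05. In the paired fit 535 genes were called higher, 3.80% of those tested, and 512 lower, 3.63%, together 7.43%, against 2 members called higher and 0 lower. Of the 5 members, 3 had an unadjusted p under 0.05 in the paired fit, as 3366 of all tested genes did, 23.9%, and DESeq2 and limma-voom with the block called the same 2 members. The unpaired edgeR fit called 0 of the 14090 genes and none of the 5 members. At an unadjusted p under 0.05 that fit held 1017 genes, 7.22%, with 3.20% higher and 4.02% lower, and Ccnd2 was the member among them. Without the block limma-voom called 0 genes and DESeq2 called 53 higher, 0.376%, and 36 lower, 0.256%, with Ccnd2 the member among them. In bulk RNA a change in the share of cells of a kind and a change in RNA per cell cannot be told apart.

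**Figure D1:**
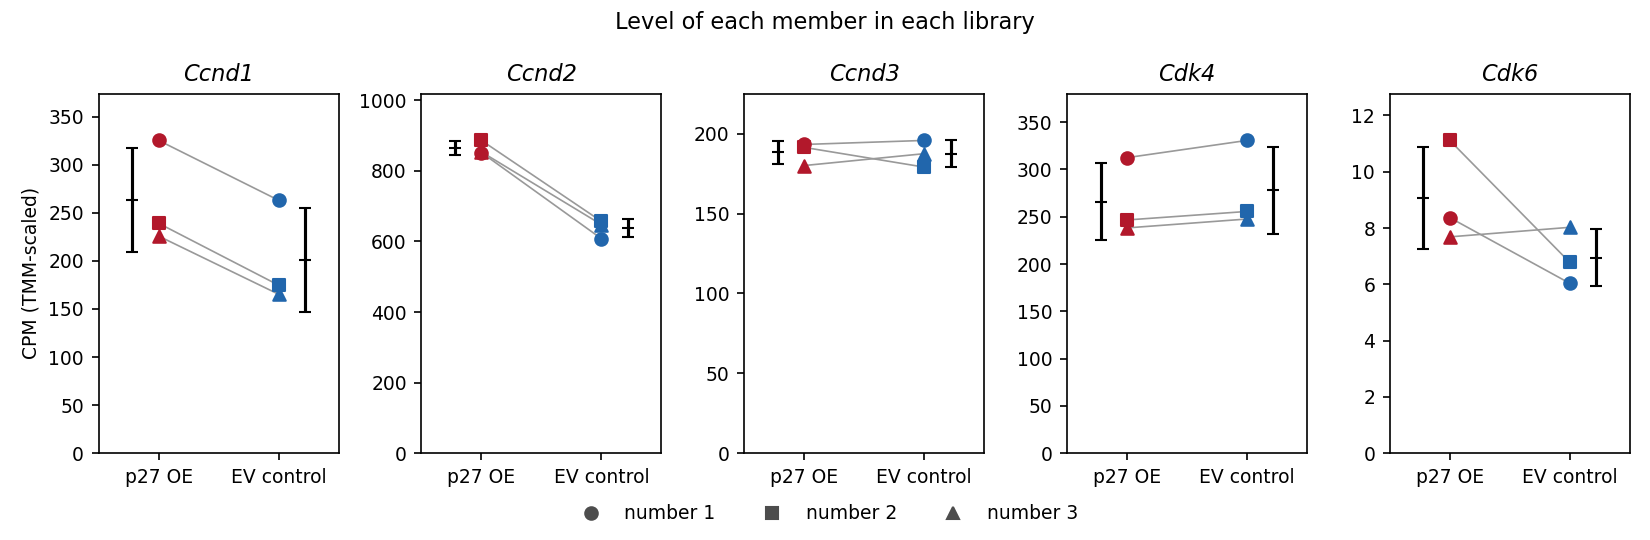
Level of each member in CPM (TMM-scaled, axes from 0) in the 3 p27 OE libraries (red) and the 3 EV control libraries (blue), with lines joining libraries of the same number and black bars for mean ± SD. The lines of Ccnd1 and Ccnd2 run higher at the p27 OE end in each pair, and only for Ccnd2 do the groups not overlap.

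Ccnd2 encodes cyclin D2 and spans bases 127125162 to 127152193 of chromosome 6, reverse strand (GRCm38). It stood at 852, 886 and 854 CPM in p27 OE 1, 2 and 3 and at 608, 657 and 648 CPM in EV control 1, 2 and 3. The lowest p27 OE library was above the highest EV control library, a separation in that direction that 6.61% of all tested genes showed. The reverse separation was found in 8.28% of genes and in 0 members. The means were 864 ± 19.3 CPM in p27 OE and 638 ± 26.1 CPM in EV control (SD, n = 3 each), a ratio of 1.36. The log2 ratio within a number was 0.49, 0.43 and 0.40 in pairs 1, 2 and 3. The paired edgeR fit gave a log2 fold change of 0.44 ± 0.06 (SE, 3 pairs; 95% interval 0.32 to 0.56) with an adjusted p of 0.000646. The unpaired edgeR fit gave 0.44 ± 0.07 with an adjusted p of 0.642, and DESeq2 without pairing gave an adjusted p of 2.86e-06. Leaving out the libraries numbered 1, 2 or 3 gave a paired fold change of 0.41, 0.45 or 0.46, called each time (edgeR adjusted p 0.000154, 7.50e-07 and 0.00663).

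Ccnd1 encodes cyclin D1, the D-type cyclin most often tied to growth factor signalling, and spans bases 144929931 to 144939925 of chromosome 7, reverse strand. Its level was 325, 239 and 226 CPM in p27 OE 1, 2 and 3, against 263, 175 and 165 CPM in EV control 1, 2 and 3. The groups overlapped, because EV control 1 was above p27 OE 2 and p27 OE 3, while each pair was higher in p27 OE. A direction shared by the 3 pairs toward p27 OE was found in 21.8% of tested genes. The log2 ratio within a number was 0.31, 0.45 and 0.45 in pairs 1, 2 and 3. The mean was 263 ± 54.0 CPM in p27 OE and 201 ± 53.9 CPM in EV control (SD, n = 3 each). In the paired edgeR fit the log2 fold change was 0.40 ± 0.06 (95% interval 0.28 to 0.52, adjusted p 0.00127). In the unpaired fit it was 0.39 ± 0.22 (95% interval -0.13 to 0.91, adjusted p 0.759), and DESeq2 without pairing gave 0.740. The paired call held without the libraries numbered 1, 2 or 3 (0.45, 0.38 and 0.38; edgeR adjusted p 1.42e-05, 0.000127 and 0.0170). Without pairing the fold change moved by more than 1.5 times when a single library numbered 1 was left out, to 0.21 without p27 OE 1 and 0.63 without EV control 1.

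Ccnd3 encodes cyclin D3, the most widely expressed of the family, and spans bases 47505051 to 47599691 of chromosome 17, forward strand. It was at 193, 191 and 180.1 CPM in p27 OE 1, 2 and 3 and at 196, 179 and 188 CPM in EV control 1, 2 and 3. The groups overlapped, and the within-number ratios were -0.02, 0.10 and -0.06. The paired edgeR fit gave 0.01 ± 0.05, with a 95% interval of -0.11 to 0.12 and an adjusted p of 0.962. Leaving out pair 1 gave 0.02 (edgeR adjusted p 0.877). The interval over 3 pairs lies below those of Ccnd1 and Ccnd2.

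Cdk4 encodes the kinase that partners D-type cyclins in most cells and spans bases 127063534 to 127067920 of chromosome 10, forward strand. It stood at 313, 247 and 238 CPM in p27 OE 1, 2 and 3, against 331, 256 and 248 CPM in EV control 1, 2 and 3. The groups overlapped, and Cdk4 was lower in p27 OE in each pair, with log2 ratios of -0.08, -0.05 and -0.06. Of all tested genes 23.7% were lower in each of the 3 pairs. The paired edgeR fit gave -0.06 ± 0.05 (95% interval -0.18 to 0.05, adjusted p 0.507), and -0.05 without the libraries numbered 1 (adjusted p 0.564). Without pairing it was -0.06 ± 0.15 (adjusted p 0.973), and its sign turned when EV control 1 (0.078) or p27 OE 3 (0.0067) was left out.

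Cdk6 encodes the second D-type cyclin kinase, prominent in blood cells, and spans bases 3341485 to 3531008 of chromosome 5, forward strand. It had 240 to 426 reads per library, which makes it the member with the least depth. Its level was 8.37, 11.1 and 7.69 CPM in p27 OE 1, 2 and 3 and 6.04, 6.78 and 8.03 CPM in EV control 1, 2 and 3. p27 OE 2 held the highest value, and the groups overlapped. The log2 ratio within a number was 0.47, 0.71 and -0.06 in pairs 1, 2 and 3. The paired edgeR fit gave 0.37 ± 0.14 (95% interval 0.06 to 0.69) with an unadjusted p of 0.0237 and an adjusted p of 0.138, so Cdk6 was not called. The estimate was 0.32, 0.21 or 0.59 without the libraries numbered 1, 2 or 3 (edgeR adjusted p 0.292, 0.497 and 0.0552).

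**Figure D2:**
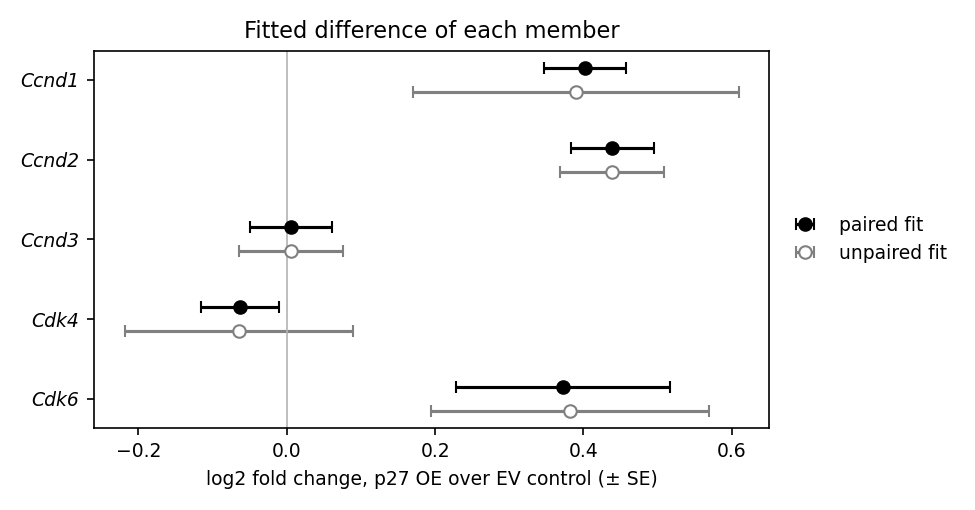
Log2 fold change of each member, p27 OE over EV control, with its SE, from the paired edgeR fit (filled black) and the unpaired one (open grey). Both fits give like estimates, and for Ccnd1 the SE is 0.06 with pairing and 0.22 without it.

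The members also differed in how much they varied between the numbered libraries. On the log2 CPM scale the libraries numbered 1 exceeded those numbered 2 and 3 by 0.56 for Ccnd1 and 0.38 for Cdk4. The same difference was 0.08 for Ccnd3, -0.07 for Ccnd2 and -0.21 for Cdk6, and its median size over all tested genes was 0.22. For Ccnd1, Ccnd3 and Cdk4 it was larger in size than the fitted difference between p27 OE and EV control, and for Ccnd2 and Cdk6 it was smaller.

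Over all 6 libraries the share of Ccnd3 among the D-type cyclin reads was lower in p27 OE without overlap between groups. Those of Ccnd1 and Ccnd2 overlapped. These shares do not depend on scaling between libraries, and the exact permutation test (two-sided) cannot give a p below 0.1 with 3 libraries against 3. Ccnd3 made up 14.1%, 14.5% and 14.3% of the D-type cyclin CPM in p27 OE 1, 2 and 3, against 18.4%, 17.7% and 18.7% in EV control 1, 2 and 3. The groups did not overlap, and the difference of -3.96 percentage points had an exact p of 0.1, the smallest possible. Ccnd2 held 62.2%, 67.3% and 67.8% in p27 OE and 57.0%, 65.0% and 64.7% in EV control, higher in each pair but with overlapping groups (3.51 points, exact permutation p 0.4; 0.881 points without EV control 1 and 5.30 without p27 OE 1). The Ccnd1 share was 23.7%, 18.2% and 17.9% in p27 OE and 24.7%, 17.3% and 16.5% in EV control (0.449 points, exact permutation p 0.8), and this difference turned negative without p27 OE 1, EV control 2 or EV control 3 (-1.45, -0.651 and -1.04 points). Cdk6 reads per 100 Cdk4 reads numbered 2.68, 4.51 and 3.23 in p27 OE and 1.83, 2.65 and 3.24 in EV control, with overlapping groups (difference 0.897, exact permutation p 0.3; 0.379 without p27 OE 2 and 0.523 without EV control 1). Without the libraries numbered 1 the differences were 1.14 points for Ccnd1, 2.67 for Ccnd2 and -3.81 for Ccnd3, and 0.919 Cdk6 per 100 Cdk4, with 2 libraries a group and no test. The groups then did not overlap for any of the D-type cyclin shares, so the overlap for Ccnd1 and Ccnd2 came with the libraries numbered 1. With so few libraries a lack of overlap carries little weight. The 3 shares add up to the whole and are not separate observations. Ccnd3 itself averaged 188 CPM in p27 OE and 187 CPM in EV control, so its lower share went with the higher Ccnd1 and Ccnd2.

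**Figure D3:**
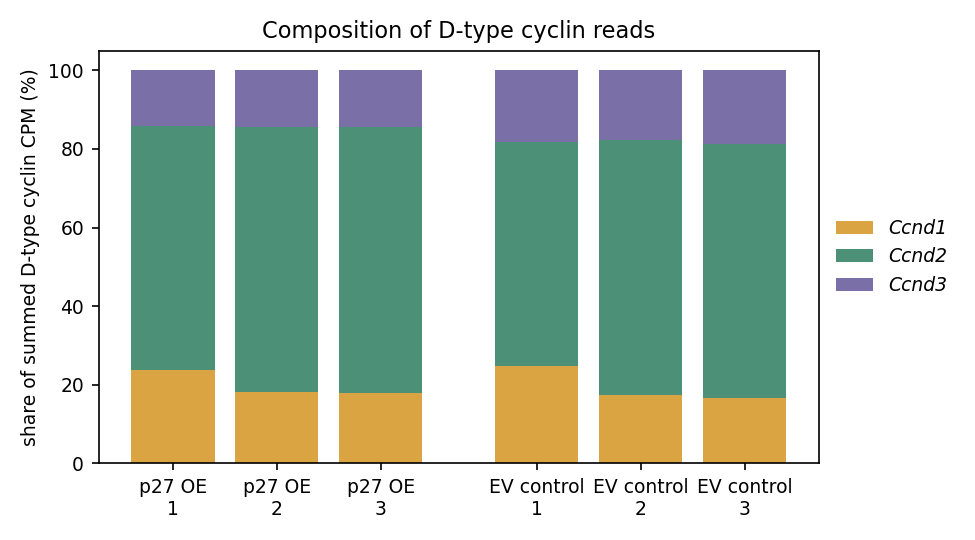
Share of each D-type cyclin in their summed CPM, in percent, as stacked bars for the 3 p27 OE libraries (left) and the 3 EV control libraries (right). The Ccnd3 segment at the top is 14.1% to 14.5% in p27 OE and 17.7% to 18.7% in EV control.

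Summed over the 3 genes, D-type cyclin CPM was 1370.5, 1317 and 1260 in p27 OE 1, 2 and 3 and 1067, 1011 and 1001 in EV control 1, 2 and 3. The summed kinases, Cdk4 and Cdk6, were at 321, 258 and 246 CPM in p27 OE and at 337, 262 and 256 CPM in EV control. The ratio of cyclin to kinase CPM was 4.27, 5.11 and 5.12 in p27 OE, against 3.17, 3.85 and 3.91 in EV control. The groups did not overlap for the summed cyclins or for this ratio, each with the smallest exact permutation p possible, 0.1, and the kinase sums overlapped (exact permutation p 0.6). Without the libraries numbered 1 the summed cyclins averaged 1288 CPM in p27 OE and 1006 CPM in EV control, and the ratio 5.11 in p27 OE and 3.88 in EV control. These sums were added after the values were seen. Ccnd2, already called and without overlap, made up 57.0% to 67.8% of the summed cyclins. The separation of the sum and of the ratio is therefore not separate evidence.

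Levels of different genes were compared per kilobase of annotated exon. On that scale Cdk4 ranged from 73.3 to 102 over the 6 libraries, Ccnd2 from 64.6 to 94.2, Ccnd1 from 35.1 to 69.1, Ccnd3 from 20.4 to 22.3 and Cdk6 from 0.432 to 0.794 CPM per kilobase. Over all 6 libraries Cdk4 and Ccnd2 overlapped, as did Ccnd2 and Ccnd1, although within either group each Ccnd2 value was above each Ccnd1 value. With this length Ccnd3 lay below each Ccnd1 value, and Cdk6 lay far below the rest. In p27 OE the mean was 91.8 ± 2.05 CPM per kilobase for Ccnd2 and 81.8 ± 12.5 for Cdk4, and in EV control it was 67.8 ± 2.77 for Ccnd2 and 85.6 ± 14.1 for Cdk4 (SD, n = 3 each). Ccnd2 and Cdk4 values overlapped in p27 OE, and in EV control each Cdk4 value was above each Ccnd2 value. With the longest transcript as the length the order of the means over all libraries was the same, but the ranges met differently. Ccnd3, at 46.4 to 50.8, then overlapped Ccnd1, at 44.2 to 87.0. In EV control 3 Ccnd3 was above Ccnd1 (48.6 against 44.2). Ccnd2, at 96.0 or more, no longer overlapped Ccnd1. Per kilobase of exon and without the libraries numbered 1, Ccnd2 averaged 92.5 and Cdk4 74.6 CPM in p27 OE. In EV control Ccnd2 then averaged 69.3 and Cdk4 77.5. Each Ccnd2 value in p27 OE was then above each Cdk4 value.

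**Figure D4:**
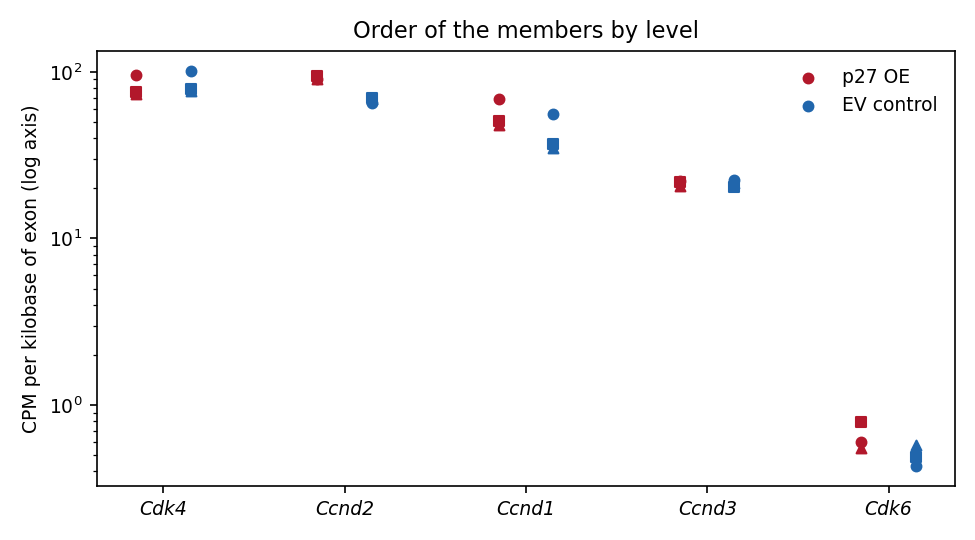
Level of each member per kilobase of exon (CPM per kilobase, log axis), ordered from highest to lowest mean over the 6 libraries, with p27 OE in red at the left of each gene and EV control in blue at the right. Cdk4 and Ccnd2 are highest and Cdk6 lies between 0.432 and 0.794.

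Ccnd1 overlaps exons of LTO1 on the opposite strand over 1100 bases, Cdk4 those of Tspan31 over 641 bases and Ccnd3 those of Bysl over 361 bases, and the libraries do not mark strand. LTO1, listed in the table under its older name Oraov1, was at 16.5 to 23.0 CPM, Tspan31 at 108 to 126 CPM and Bysl at 25.0 to 32.6 CPM. None of the 3 was called in the paired edgeR fit (adjusted p 0.675, 0.497 and 0.603). Ccnd2 shares 372 bases with the antisense gene Gm43126 and 368 with 9330179D12Rik, which was at 0.395 to 0.848 CPM, and Cdk6 shares 368 with the antisense gene Gm17590. Reads of such partners cannot be told apart, and the sources used here do not say how they were assigned.

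Of 30 transcription factors that act on D-type cyclin genes, 1 rose in the paired fit and 0 fell, with 6 at an unadjusted p under 0.05 (23.9% of all tested genes were). The median log2 fold change was 0.07, against -0.00 over all tested genes. By pair the list's median log2 ratio was 0.03, 0.18 and 0.03 in pairs 1, 2 and 3. The one called was Myc, at 42.1, 89.1 and 77.0 CPM in p27 OE 1, 2 and 3 and at 30.0, 55.6 and 53.8 CPM in EV control 1, 2 and 3 (0.56 ± 0.06, edgeR adjusted p 0.000220). Myc was higher in each pair and overlapped between groups, and within each group it was lowest in the library numbered 1, where Ccnd1 and Cdk4 were highest. Ets1, a growth-related ETS factor, was at 0.27 ± 0.08 with an adjusted p of 0.0604. Promoter entries were found for 3 of the 5 members (Ccnd3, Cdk4 and Cdk6). The sequence upstream of Cdk4 is shown because it repeats the letters that Myc and related factors bind, CACGTG (the E-box, a palindrome), here in capitals. It covers chr10:127063285-127063533 on the forward strand (RefSeq, GRCm38.p6), up to the first annotated exon base. For comparison the stretch of Cdk6 at chr5:3343643-3343731, forward strand, is given with its E-box in capitals, up to the first exon base annotated there. Unlike that of Cdk4, it lies inside the annotated span of its gene, which starts at base 3341485. The RefSeq start site used for Cdk6 was base 3343893.
Cdk4: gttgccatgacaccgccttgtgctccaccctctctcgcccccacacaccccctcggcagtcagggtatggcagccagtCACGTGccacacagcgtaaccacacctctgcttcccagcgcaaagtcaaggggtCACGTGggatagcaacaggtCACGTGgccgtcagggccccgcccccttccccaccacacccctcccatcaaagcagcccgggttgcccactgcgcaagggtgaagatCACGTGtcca
Cdk6: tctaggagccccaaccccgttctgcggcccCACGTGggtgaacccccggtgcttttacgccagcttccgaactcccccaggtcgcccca

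In the 250 bases before the RefSeq start site Cdk4 held 4 E-boxes, beginning 172, 118, 98 and 11 bases before it, and Cdk6 held 1, beginning 220 bases before it. Both Ccnd3 start sites held 0. Of 32851 such windows of mouse genes 6.02% held at least 1 E-box and 0.0609% held 3 or more. The GC box GGGCGG, searched on both strands like the others, occurred in the windows of Cdk4 and Ccnd3 (32.7% of all windows), the cyclic AMP half-site TGACGT in 1 of the Ccnd3 windows (6.47%) and the AP-1 site TGACTCA or TGAGTCA in none of these windows (4.46%). Ccnd1 and Ccnd2 were not among the sequences used here. A match of letters is not evidence of binding.

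Of 16 genes for D-type cyclin turnover and localization, 2 rose in the paired fit and 0 fell, with a median of -0.00. They were Gsk3b, the kinase that phosphorylates cyclin D1 for export and degradation (89.9, 112 and 94.9 CPM in p27 OE, 76.3, 93.8 and 86.8 CPM in EV control; edgeR adjusted p 0.0398), and Cryab, a small heat shock protein that can act in cyclin D1 ubiquitination (53.8, 58.1 and 58.0 CPM in p27 OE, 50.9, 47.7 and 42.3 CPM in EV control; adjusted p 0.0398). The groups did not overlap for Cryab, and for Gsk3b they did. Gsk3b was not called by DESeq2 with the block (adjusted p 0.0588), nor by edgeR without the libraries numbered 2 (0.145) or 3 (0.148), and Cryab not without those numbered 3 (0.374). Of the 6 genes of the CDK-activating kinase and the chaperones that fold CDKs, Hsp90aa1 was at 494, 539 and 531 CPM in p27 OE and 421, 428 and 439.6 CPM in EV control, without overlap. It rose by 0.28 ± 0.05 (edgeR adjusted p 0.00955, also called by DESeq2 without pairing at 0.0377), and Hsp90ab1 stood at -0.11 ± 0.06 (adjusted p 0.262).

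Of the 6 other CDK inhibitors, leaving out Cdkn1b, 1 fell in the paired fit and 0 rose, with a median of -0.11. Cdkn1c, which encodes p57, was at 131, 66.7 and 59.9 CPM in p27 OE 1, 2 and 3 and at 223, 105 and 109 CPM in EV control 1, 2 and 3 (-0.76 ± 0.06, edgeR adjusted p 1.54e-05). Like Ccnd1 it was highest in the libraries numbered 1 and lay on one side in each pair. Cdkn2c, which encodes the INK4 inhibitor p18, was at 7.32, 4.59 and 5.96 CPM in p27 OE and 8.65, 7.997 and 7.25 CPM in EV control and was not called (-0.43 ± 0.14, adjusted p 0.0730).

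Downstream of the kinases, the paired edgeR fit called 0 of 13 pocket proteins and E2F factors, 1 had an unadjusted p under 0.05 (against 23.9% of all tested genes), and DESeq2 and limma-voom with the block called 0. That gene was E2f3 (0.20 ± 0.07, adjusted p 0.0869), and Tfdp1, the E2F dimer partner, was at 0.07 ± 0.05. Of 23 E2F target genes of the G1/S transition 3 rose and 0 fell, with a median log2 fold change of 0.07. Ccne2, a cyclin of CDK2, was at 5.89, 3.37 and 2.65 CPM in p27 OE and 3.78, 1.72 and 1.44 CPM in EV control (0.81 ± 0.18, edgeR adjusted p 0.0152). Tk1, thymidine kinase, was at 41.4, 20.9 and 20.9 CPM in p27 OE and 35.7, 15.99 and 15.03 CPM in EV control (0.35 ± 0.08, adjusted p 0.0170). Both were highest in the library numbered 1 of each group, as Ccnd1 was. Ccne1, the related cyclin, was called by edgeR at 0.24 ± 0.06 (adjusted p 0.0390) but not by DESeq2 with the block (0.0686), nor by edgeR without the libraries numbered 2 (0.0584) or 3 (0.304), and it is named after its values were seen. The list's median log2 ratio was 0.13, -0.03 and 0.12 in pairs 1, 2 and 3.

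Among 24 other cyclins tested, 3 rose and 0 fell in the paired fit: Ccne1, Ccne2 and Ccnyl1, a relative of the membrane-bound cyclin Y, which was at 60.8, 130.2 and 113 CPM in p27 OE and at 54.2, 82.3 and 73.9 CPM in EV control (0.48 ± 0.09, adjusted p 0.0228). Among 21 other CDKs Cdk12, a kinase of RNA polymerase II, rose (42.1, 46.8 and 49.9 CPM in p27 OE and 34.5, 39.6 and 42.9 CPM in EV control; 0.25 ± 0.06, adjusted p 0.0292), none fell, and Cdk8 was at 0.22 ± 0.06 (adjusted p 0.0567). The medians were -0.00 for the cyclins and 0.05 for the CDKs, and the shares called over all genes, 3.80% higher and 3.63% lower, apply to each of these lists. Over the lists together, of 6, 13, 30, 16, 6, 24, 21 and 23 tested genes, 9 different genes rose and 1 fell. Some genes occur in more than 1 list, and 7.43% of all tested genes were called in either direction. Leaving out the libraries numbered 1, 2 or 3 gave counts of 15 and 3, 7 and 1, and 1 and 1. The same fits called 893 and 848, 503 and 425, and 224 and 106 of all tested genes higher and lower. Myc and Cdkn1c were called in each of these fits, and without the libraries numbered 3 they were the ones left, the other 8 having adjusted p of 0.0722 to 0.374.

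**Figure D5:**
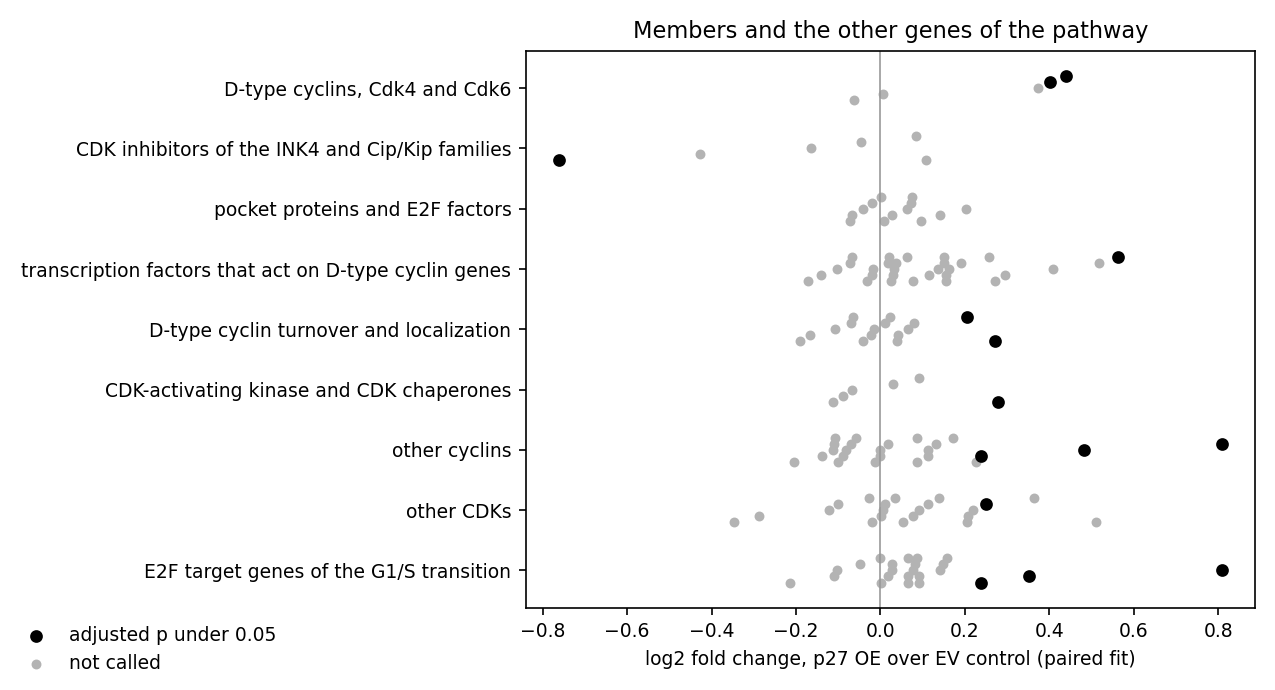
Log2 fold change, p27 OE over EV control, in the paired edgeR fit for the 5 members (top row) and for each gene of 8 lists of the pathway, with called genes in black and others in grey and vertical offsets only for visibility. Ccnd1 and Ccnd2 stand at 0.40 and 0.44, with Ccne2 at 0.81 and Cdkn1c at -0.76 the called genes farthest from 0.

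Genes whose pattern over the 6 libraries was nearest to that of a member were found from the root mean square difference of log2 CPM, each gene centred on its mean, restricted to genes averaging 5 CPM or more. For Ccnd1 they were Ano1, a chloride channel, Plcb1 and Cnih2, at differences of 0.05, 0.07 and 0.08, against a median of 0.36 over all genes compared. Ano1 lies on the same chromosome as Ccnd1, from 144588549 to 144751974, with a gap of 178 kilobases between them. Its level was 7.54, 5.77 and 5.59 CPM in p27 OE 1, 2 and 3 and 5.91, 4.04 and 3.80 CPM in EV control 1, 2 and 3, and its paired edgeR adjusted p was 0.0501.

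For Ccnd2 the nearest were Synm, an intermediate filament gene, Myof, a membrane repair gene, and Btaf1 (0.05, 0.05 and 0.06, median 0.27). Myof was at 313, 330.2 and 332 CPM in p27 OE and 236, 255 and 265 CPM in EV control. Its paired edgeR adjusted p was 0.00168. Myof and Ano1 were picked for their likeness to a called member over the same libraries, so their p-values are not separate evidence. For Cdk4 they were Xpo1, the nuclear export receptor, Anp32a and Anp32e (each at 0.02, median 0.22). Xpo1 stood at 117, 90.6 and 87.6 CPM in p27 OE and 124, 93.5 and 92.1 CPM in EV control. For Ccnd3 they were Tpd52l2, Rac1 and 9530068E07Rik (each at 0.02, median 0.15), and for Cdk6 Elmsan1, Sash1 and Urb2 (0.10, 0.11 and 0.11, median 0.31). Among the members themselves the nearest were Ccnd3 and Cdk4, at 0.15, and Ccnd1 and Ccnd2 differed by 0.30. These differences were no smaller than the medians for Ccnd3 (0.15) and Ccnd2 (0.27). They were below the medians for Cdk4 (0.22) and Ccnd1 (0.36). This is a description over 6 libraries that include the contrast of the groups.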

How the data were processed

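Raw counts per gene symbol, whole numbers in a column per library, were deposited by the authors without normalization, and 0 columns were unmapped. TopHat2 2.0.14, featureCounts 1.4.6, Subread and Bowtie2 2.2.6 are named, with build mm10, per the submitters' processing notes. Not given in the sources used here: annotation and handling of multi-mapping reads.

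Libraries were grouped by title, 3 per group. Genes passing filterByExpr (minimum count 10, minimum total 15) were scaled by TMM and fitted in R 4.3.3 by the two-sided quasi-likelihood test of edgeR 4.0.16. DESeq2 1.42.0 and limma-voom 3.58.1, other scalings, no filter and left-out libraries were alternatives, and the fits were tested on simulated data. SE was taken from the F statistic. The planned main fit had no block. Deviations from the group mean (log2 CPM, prior count 2) of libraries numbered 1, 2 and 3 correlated between groups at 0.77, 0.42 and 0.54. The numbers were taken as pairs, although libraries numbered 2 and 3 also correlated across numbers (0.41 and 0.39). Deviations cancel out within a group, and the libraries numbered 1 stood apart. The check therefore cannot decide whether 2 pairs with 2 and 3 with 3, and that pairing rests on the numbering. Exon lengths and positions came from GENCODE M21 (GRCm38). The genes, lists and rules were chosen with earlier results of these data known. Named beside the 5 genes were, per list, the 2 with the smallest paired p and the called one with the largest change, and the 3 nearest patterns per gene. Ccne1 was added after its values were seen.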

Additional observations from a re-analysis of the deposited data

How the results depend on the processing

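Without pairing, the log2 fold changes of Ccnd1, Ccnd2 and Cdk6 kept their direction under each scaling, filter, tool and left-out library tried, and no member was called except Ccnd2 by DESeq2 (0.44). Leaving out single libraries gave 0.21 to 0.63 for Ccnd1, 0.40 to 0.46 for Ccnd2, -0.026 to 0.038 for Ccnd3, -0.20 to 0.078 for Cdk4 and 0.21 to 0.50 for Cdk6, and with 2 libraries left in a group the fit lets them vary like the rest. Those left-out values ran from -1.45 to 3.03 points for the Ccnd1 share. With the replicate block Ccnd1 was called at 0.40 and Ccnd2 at 0.44. With the block, Ccnd1 and Ccnd2 were also called under DESeq2 (0.41 and 0.45), limma-voom (0.40 and 0.44), no filter (0.40 and 0.43), RLE scaling (0.41 and 0.45) and upper-quartile scaling (0.38 and 0.42), and without the libraries numbered 1 (0.45 and 0.41), 2 (0.38 and 0.45) or 3 (0.38 and 0.46). The sign of Ccnd3 turned with upper-quartile scaling (-0.015, and -0.015 with the block) and with the block without the libraries numbered 2 (-0.034). Without pairing it also turned when EV control 2 (-0.026), p27 OE 1 (-0.014) or p27 OE 2 (-0.0020) was left out. The cause was not tested.

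Without pairing, the number of genes called higher and lower was 0 and 0, and it was 53 and 36 with DESeq2, 1 and 0 with no filter, and 0 to 1 higher and 0 to 0 lower when single libraries were left out. With the block it was 535 and 512, with DESeq2 479 and 351, with limma-voom 536 and 506, with no filter 689 and 727, with RLE scaling 567 and 475 and with upper-quartile scaling 483 and 736. Without the libraries numbered 1, 2 or 3 it was 893 and 848, 503 and 425, and 224 and 106. Of the pathway lists, DESeq2 without pairing called 1 higher. With the block 9 and 1 were called, with DESeq2 7 and 1, with limma-voom 9 and 1, with no filter 11 and 2, with RLE scaling 9 and 1, with upper-quartile scaling 7 and 1, and without the libraries numbered 1, 2 or 3, 15 and 3, 7 and 1, and 1 and 1. Cdk6 had the fewest reads of the members, 240 to 426, and counting error was not set against the spread between libraries.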
